A study of Homo sapiens with 16 samples.

Results

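Hep3B cells labelled DMSO were compared with Hep3B parental cells. Hep3B is an established human hepatocellular carcinoma line. The comparison rests on 4 of the 16 RNA-seq libraries of the study, 2 from DMSO cells and 2 from parental cells, selected by the cell line and group in their labels. In the study, Hep3B and a second hepatocellular carcinoma line, Huh7, were each profiled as parental cells, as DMSO cells and as 2 sorafenib-resistant sublines, IR (raised in stepwise increasing sorafenib) and CR (raised in a constantly high dose), both kept at 7 μM of this kinase inhibitor. DMSO is a common solvent of the drug, and neither the labels nor the methods say what role the DMSO cells had beside the resistant sublines. The labels give no DMSO concentration or duration, and their treatment field reads untreated for DMSO and parental cells alike. The methods of the study describe biological triplicates, but the labels give 2 libraries a group and do not say whether they were separate cultures. The p-values below therefore measure only the spread between replicate libraries, shared over all 16 and so also over Huh7, which may be technical. Because all libraries are bulk RNA, fewer cells of a kind and less RNA per cell cannot be told apart.

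Hepatocytes make most plasma proteins, detoxify drugs and hormones, make urea from ammonia, and build cholesterol, triglycerides and bile acids. These functions are run by a network of transcription factors that includes HNF4A, CEBPA and the FOXA proteins, and hepatoma lines keep them only in part while often expressing fetal liver genes such as AFP. DMSO at moderate concentration is used in culture to keep or raise hepatocyte gene expression. Hypoxia-inducible factors, the other subject of the source study, are transcription factors that accumulate when oxygen is low and raise genes of glycolysis, pH control and angiogenesis.

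The 4 libraries held 71089113 to 76860251 reads assigned to genes, within a range of 46613302 to 76860251 over all 16 libraries. The hepatocyte origin of the cells was visible in every library. Levels are in CPM, the reads of a gene scaled to the total of assigned reads in its library. ALB was at 12152 to 19702 CPM, APOB at 3597 to 8293 CPM and HNF4A at 191 to 218 CPM. Markers of other cell types were mostly near 0: COL1A1 reached at most 0.192 CPM, ACTA2 0.0781, PECAM1 0.603 and PTPRC 0.0781, and CD3E, MS4A1, CD163, MARCO, NKG7 and HBB had no read. Those above 1 CPM in at least 1 library were CD68, LYZ and CD14 of the immune list, of which CD14 reached 1.03 CPM, and LUM, PDGFRA, PDGFRB and LRAT of the fibroblast and stellate list, which reached 32.9, 42.6, 14 and 1.78 CPM. The summed level of the 13 immune markers was 10.8 and 22.2 CPM in the parental libraries and 49.9 and 68.7 CPM in the DMSO libraries, nearly all of it from CD68 (7.46, 10.3, 18.2 and 32.9 CPM) and LYZ (3.07, 11.4, 30.6 and 34.8 CPM). Summed fibroblast and stellate markers were at 64.9 and 72.0 CPM in parental and 62.4 and 54.9 CPM in DMSO cells, and summed endothelial markers lay between 0.41 and 0.63 CPM. None of the immune or endothelial markers passed the test described next, and the part of these markers in the results below was not tested.

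The first question was which genes differed between DMSO and parental Hep3B cells. Of 15019 genes tested, 160 rose and 77 fell in DMSO cells, 237 or 1.58% in all (1.07% higher and 0.513% lower). A gene was called when its adjusted p was under 0.05 (limma, Benjamini-Hochberg over all genes tested) and its log2 fold change was at least 0.58 in size. Fold changes are differences of group means of log2(CPM + 1), given with their standard error (SE), and the added 1 CPM makes them smaller than the ratio of CPM for genes near or under 1 CPM. In all 237 called genes the DMSO libraries lay beyond both parental libraries, but so they did in 32.3% of all genes on the upper side and 29.6% on the lower. At the study's thresholds, which use an unadjusted p under 0.05, 1210 genes passed (8.06%), 845 higher (5.63%) and 365 lower (2.43%), and 763 did without DMSO replicate 2. The median log2 fold change over all genes tested was 0.01, so the comparison was centred near 0.

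The number called depended on single libraries. It was 46 without parental replicate 1, 122 without parental replicate 2, 86 without DMSO replicate 1 and 46 without DMSO replicate 2, and 77 genes (36 higher, 41 lower) passed edgeR's quasi-likelihood test on the recovered reads. With quantile normalization, 146 genes rose and 135 fell, so that the share of higher genes was 52.0% in place of 67.5%. Across 14450 genes with a GC content, the log2 fold change had a Spearman correlation of 0.468 with GC content, a description over genes of the same 4 libraries. With that trend removed 155 genes were higher and 83 lower, and 179 of the 237 were called again. Just inside the threshold were CHRNA5 at -0.79 and RHBG at 0.74 (both adjusted p = 0.0499), and just outside it ASAP3 at 1.70 and PTCH1 at 0.89 (both with an adjusted p that reached the threshold at the fifth decimal).

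**Figure D1:**
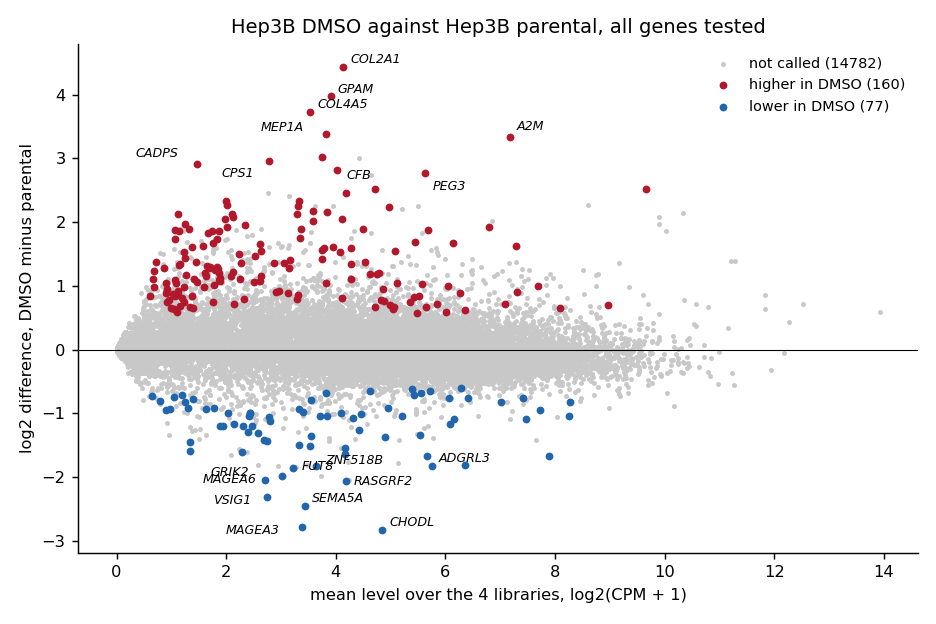
Log2 fold change of DMSO over parental Hep3B cells (y axis) against the mean log2(CPM + 1) of the 4 libraries (x axis) for all 15019 genes tested. Red points are the 160 genes that rose and blue points the 77 that fell, and the labelled genes are among those with the highest and lowest changes, from COL2A1 at 4.43 to CHODL at -2.82.

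The genes that rose furthest included 2 collagen genes. COL2A1, the fibrillar collagen of cartilage (chromosome 12 from 48366750 to 48398337, GRCh37), was at 0.996 and 6.11 CPM in parental and at 59.9 and 107 CPM in DMSO cells, a log2 fold change of 4.43 ± 0.58 (SE, n = 2 and 2, limma adjusted p = 0.00272). COL4A5, a chain of basement membrane type IV collagen, was at 1.84 and 2.55 CPM against 35 and 48.5 CPM (3.73 ± 0.45, adjusted p = 0.00192). In both genes the groups were far apart, with the lower DMSO library at several times the higher parental library. In the resistant sublines, which were made from the same line, COL4A5 stood at 21.0 and 62.8 CPM in IR cells but at 0.159 and 0.286 CPM in CR cells, while COL2A1 stayed at 0.147 to 0.556 CPM in both.

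COL4A5 lies head to head with COL4A6, which encodes another type IV collagen chain and is read from the opposite strand. COL4A6, looked up after the values of COL4A5 were seen, was at 0.660 and 1.52 CPM in parental and 6.75 and 9.35 CPM in DMSO cells, so the groups were apart here too (2.13 ± 0.48, adjusted p = 0.0493), but COL4A6 did not pass without any of the 4 libraries (0.101 to 0.367). These were 2 of the 6 type IV collagen genes, beside 1.07% of all genes that rose, and none of the other 4 passed. The promoter windows of the pair are shown because they overlap: each runs from 250 bases before to 50 bases after the annotated start in RefSeq on GRCh38.p14 (COL4A5 at chrX:108439588-108439887 on the plus strand, COL4A6 at chrX:108439409-108439708 on the minus strand), and the 121 bases that both windows hold are in capitals, read on opposite strands. COL4A6 has 2 such windows in the table, and the one that overlaps is given.
COL4A5: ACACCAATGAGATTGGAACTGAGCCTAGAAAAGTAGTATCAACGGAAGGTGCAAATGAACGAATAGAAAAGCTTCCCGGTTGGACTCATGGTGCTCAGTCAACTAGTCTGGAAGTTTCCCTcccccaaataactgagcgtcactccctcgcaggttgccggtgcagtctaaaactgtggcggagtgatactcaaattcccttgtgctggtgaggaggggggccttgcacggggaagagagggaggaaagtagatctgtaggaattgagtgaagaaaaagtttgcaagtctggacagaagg
COL4A6: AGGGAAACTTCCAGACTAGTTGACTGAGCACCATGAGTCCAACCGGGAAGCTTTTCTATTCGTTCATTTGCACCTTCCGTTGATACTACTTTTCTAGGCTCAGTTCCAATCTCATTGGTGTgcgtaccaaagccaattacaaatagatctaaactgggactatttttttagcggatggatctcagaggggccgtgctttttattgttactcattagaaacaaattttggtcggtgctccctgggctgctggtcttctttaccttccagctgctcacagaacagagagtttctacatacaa

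GPAM, the mitochondrial acyltransferase that starts triglyceride synthesis, was at 1.40 and 4.95 CPM in parental and at 70.3 and 48.2 CPM in DMSO cells (3.97 ± 0.53, adjusted p = 0.00338). A2M, a broad protease inhibitor of plasma, was at 25.1 and 78.5 CPM against 389 and 538 CPM (3.33 ± 0.75, adjusted p = 0.0474). The groups did not overlap in either gene, but the parental libraries themselves differed by more than 3-fold.

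MEP1A, a subunit of the membrane metalloprotease meprin, was at 1.59 and 6.44 CPM in parental and 29.6 and 66.8 CPM in DMSO cells (3.37 ± 0.59, adjusted p = 0.0152). CFB, complement factor B of the alternative pathway, was at 4.44 and 5.85 CPM against 32.9 and 54.1 CPM (2.82 ± 0.53, adjusted p = 0.0213). Here again every DMSO library lay above every parental library. CADPS, which primes dense-core vesicles for release, had a single read in the parental libraries (0.0135 and 0 CPM) and 4.71 and 9.05 CPM in the DMSO libraries, or 1022 reads. Its log2 fold change was 2.91 ± 0.21 (adjusted p = 0.000125), and the ratio of pooled CPM was 992 with a 95% exact counting interval of 178 to 39208, which covers counting error only. CADPS had no read in any IR or CR library.

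PEG3, also among the 10 highest genes, is an imprinted zinc finger gene expressed from the paternal allele (chromosome 19 from 57321445 to 57352096). It was at 15.0 and 21.8 CPM in parental and 91.8 and 179.9 CPM in DMSO cells, with no overlap (2.76 ± 0.28, limma adjusted p = 0.000686). On the recovered reads PEG3 did not pass by edgeR's quasi-likelihood test (adjusted p = 0.0583) or DESeq2's Wald test (0.21). ZIM2, which shares exons with PEG3 so that their reads may not be separable, moved with it from 0.956 and 1.28 CPM to 5.65 and 11 CPM (2.08, adjusted p = 0.000686). PEG10, another paternally expressed gene, derived from a retrotransposon (chromosome 7 from 94285637 to 94299007), was at 241 and 471 CPM in parental and 2017 and 1872 CPM in DMSO cells (2.53 ± 0.35, adjusted p = 0.00389), and did not pass without parental replicate 1 (0.0554). These 3 genes were the called members among 17 imprinted genes tested of 22 listed, beside 1.07% of all genes that rose. The list was written after PEG3 and PEG10 had been seen, so the count is no support for a change of imprinted genes. The imprinted growth factor IGF2 was at 1333 and 1777 CPM against 3689 and 4450.3 CPM (1.40, adjusted p = 0.176) and the imprinted RNA H19 at 2647 and 3245 CPM against 4629 and 4487 CPM (0.64, adjusted p = 0.795), both higher in each DMSO library without passing the test.

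Of the highest genes named here, COL2A1, COL4A5, CADPS and PEG3 passed the test whichever of the 4 libraries was left out. A2M and CFB did not pass without any of the 4 (adjusted p of 0.0585 to 0.388), MEP1A did not pass without parental replicate 1 or DMSO replicate 2 (0.190 and 0.180), and GPAM and CPS1 did not pass without parental replicate 1 (0.0513 and 0.0939).

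The genes that fell furthest included CHODL, SEMA5A and RASGRF2. CHODL, a membrane lectin, was at 123 and 45.9 CPM in parental and 9.38 and 10.2 CPM in DMSO cells (-2.82 ± 0.35, limma adjusted p = 0.00226). On the recovered reads CHODL did not pass by edgeR's quasi-likelihood test (adjusted p = 0.082) or DESeq2's Wald test (0.117). SEMA5A, a semaphorin that guides axons and vessels, was at 21.3 and 27.8 CPM against 2.65 and 4.87 CPM (-2.45 ± 0.30, adjusted p = 0.00209). RASGRF2, an exchange factor that activates Ras and Rac, was at 36.8 and 35.8 CPM against 5.33 and 11.6 CPM (-2.06 ± 0.26, adjusted p = 0.0026). In all 3 the DMSO libraries lay well below the parental libraries.

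MAGEA3, a cancer-testis antigen normally silent outside the germline (chromosome X from 151934652 to 151938240), was at 25.7 and 27.1 CPM in parental and at 2.22 and 3.88 CPM in DMSO cells (-2.79 ± 0.26, adjusted p = 0.000357). MAGEA6, at 11.6 and 19.4 CPM against 2.54 and 3.65 CPM, fell as well (-1.98, limma adjusted p = 0.00338), but did not pass by edgeR's quasi-likelihood test (adjusted p = 0.0857). Of 12 MAGEA genes, a list written after MAGEA3 had been seen, 6 were tested and 5 fell, beside 0.513% of all genes. MAGEA2 was at -1.44, MAGEA2B at -1.42 and MAGEA12 at -1.20. MAGEA12 did not pass without DMSO replicate 1 (adjusted p = 0.146), parental replicate 2 (0.102) or DMSO replicate 2 (0.0688), and the other 4 passed in each case. The members are near-identical copies on the X chromosome and only uniquely mapped reads were kept, so how much each copy contributed is uncertain. In the resistant sublines MAGEA3 was at 45.5 and 63.8 CPM in IR and at 7.72 and 5.06 CPM in CR cells.

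The other 5 of the 10 lowest genes had smaller or more uneven changes. FUT8, the enzyme that adds core fucose to N-glycans, was at 11.9 and 23.1 CPM in parental and 4.22 and 3.55 CPM in DMSO cells (-1.86 ± 0.25, adjusted p = 0.00338), and stood at 103 to 153 CPM in the resistant sublines. ZNF518B, a zinc finger protein, was at 19 and 26.6 CPM against 6.57 and 4.81 CPM (-1.83 ± 0.19, adjusted p = 0.000686). ADGRL3, an adhesion G-protein coupled receptor of the latrophilin family, was at 159 and 63.1 CPM against 22.7 and 33.8 CPM (-1.82 ± 0.33, adjusted p = 0.019). The groups were apart in each, although the parental libraries of ADGRL3 were themselves far from each other. VSIG1, an immunoglobulin-domain junction protein, fell by 2.31 ± 0.44 on the log2 scale (adjusted p = 0.0232) and GRIK2, a kainate receptor subunit, fell by 2.05 (adjusted p = 0.0301). VSIG1, GRIK2 and ADGRL3 did not pass without parental replicate 1 (adjusted p of 0.111 to 0.248), without DMSO replicate 1 (0.160 to 0.172) or without DMSO replicate 2 (0.0688 to 0.175), FUT8 did not pass without DMSO replicate 2 (0.0525), and the other 6 passed in each case.

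The main question of the comparison was whether hepatocyte differentiation genes differed. Of 182 genes in 4 lists of hepatocyte genes (plasma proteins, enzymes, transcription factors and transporters), 139 were tested, 11 rose (against 1.07% of all genes) and none fell by the limma test. The DMSO libraries lay above both parental libraries in 97 of the 139 genes and below both in 13, against 32.3% and 29.6% of all genes. The median log2 fold change was 0.66, beside 0.01 for all genes tested, and 120 of the 139 were above 0, against 51% of all genes. Many hepatocyte genes were hardly expressed in any of the 4 libraries: 70 of the 182 were under 1 CPM in each parental library, and 58 and 50 in DMSO replicates 1 and 2.

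**Figure D2:**
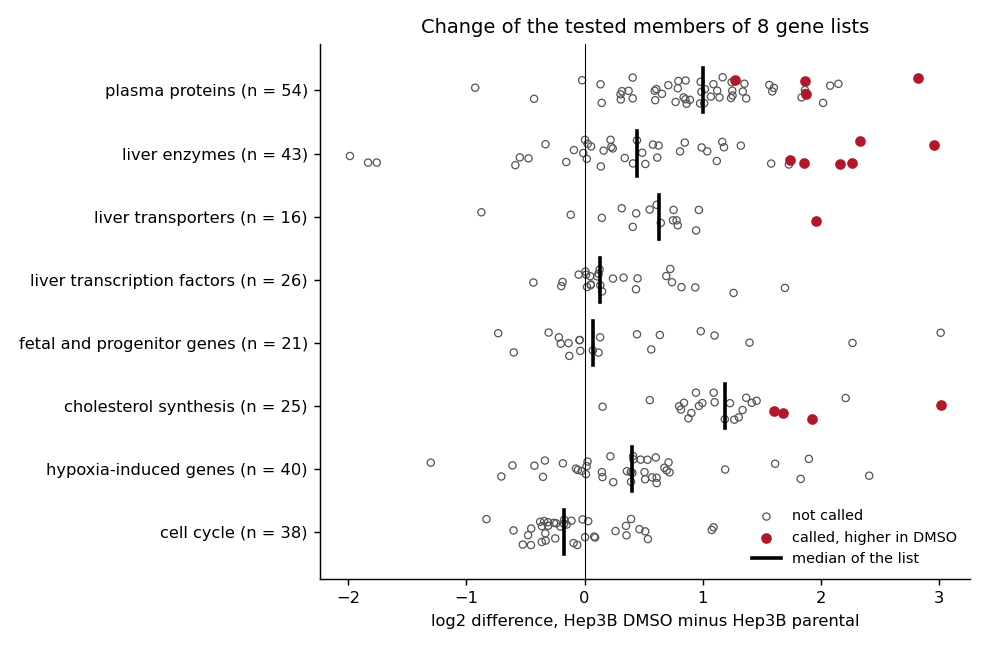
Log2 fold change of DMSO over parental Hep3B cells (x axis) for every tested member of 8 gene lists (y axis). Open circles are genes that were not called, red points are called genes and the thick line of each list is its median, which ran from -0.17 for cell cycle genes to 1.19 for cholesterol synthesis genes.

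Plasma proteins were the hepatocyte group with the highest median, 1.00 over 54 tested of 62 listed genes. CFB, F12, SERPINF2 and A1BG rose, beside 1.07% of all genes, and none fell. In 47 of the 54 both DMSO libraries were the higher ones and in 2 the lower, beside 32.3% and 29.6% of all genes. F12, the coagulation factor that starts the contact pathway, went from 0.242 and 0.113 CPM to 1.34 and 2.47 CPM (1.28 ± 0.24, adjusted p = 0.0208). SERPINF2, the main plasmin inhibitor, went from 26.2 and 25.3 CPM to 71.5 and 132 CPM (1.88 ± 0.40, adjusted p = 0.0405). A1BG, a plasma glycoprotein (chromosome 19 from 58856544 to 58864858), went from 0.121 and 0.197 CPM to 1.82 and 5.33 CPM (1.87 ± 0.27, adjusted p = 0.00502). The groups were apart in all 3, but DMSO replicate 2 was well above replicate 1 in each.

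Several abundant plasma proteins were higher in both DMSO libraries without passing the test. ALB, albumin, was at 12152 and 13348 CPM in parental and 18745 and 19702 CPM in DMSO cells (0.59 ± 0.61, adjusted p = 0.676). SERPINA1, antitrypsin, was at 392 and 547 CPM against 1514 and 2529.8 CPM (2.08, adjusted p = 0.103). APOA1, the main protein of high-density lipoprotein, was at 52.3 and 60.3 CPM against 184 and 289 CPM (2.02, adjusted p = 0.131). In these and in TF, the iron carrier transferrin (405 and 927 against 1876 and 3935 CPM; 2.15, adjusted p = 0.328), TTR, the thyroxine carrier transthyretin (1.59, adjusted p = 0.279), and APOB, the protein of low-density lipoprotein (0.71, adjusted p = 0.742), the groups did not overlap. FGB, the fibrinogen beta chain, was at 58.9 and 61.3 CPM in parental and at 34.1 and 28.5 CPM in DMSO cells (-0.92, adjusted p = 0.628), so its DMSO libraries were the lower ones. The other fibrinogen chains, named after their values were seen, did not share this: FGG had both DMSO libraries higher and FGA overlapped between the groups. The SEs use a spread shared over all 16 libraries. With the Hep3B libraries alone SERPINA1 passed as higher (adjusted p = 0.0325) and FGB as lower (0.0238).

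Among liver enzymes 6 of 43 tested genes (69 listed) rose, beside 1.07% of all genes, and none fell, with a median of 0.44. Both DMSO libraries were the higher ones in 26 of the 43 and the lower in 9, beside 32.3% and 29.6% of all genes. The summed level of the list was 3174 and 3140 CPM in parental and 2977 and 2722 CPM in DMSO cells. Most of it came from ALDH1A1, at 2410 and 2427 CPM against 1832 and 1495 CPM (-0.55, limma adjusted p = 0.66). CPS1, which catalyses the first step of the urea cycle (chromosome 2 from 211342406 to 211543831), was at 1.28 and 1.65 CPM in parental and 37.6 and 8.43 CPM in DMSO cells (2.96 ± 0.45, adjusted p = 0.00784). It had the highest change of the list and its DMSO libraries differed more than 4-fold, replicate 1 being the higher. AGXT, which detoxifies glyoxylate in peroxisomes, was at 0.713 and 0.830 CPM against 4.61 and 13.2 CPM (2.33 ± 0.39, adjusted p = 0.0114). PKLR, the liver pyruvate kinase, was at 1.09 and 0.633 CPM against 5.13 and 11.9 CPM (2.27 ± 0.43, adjusted p = 0.0243). In AGXT and PKLR replicate 2 was the higher DMSO library, and no group overlapped.

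The other 3 enzymes had DMSO replicates closer to each other. SULT2A1, which sulfates bile acids and steroids, was at 2.95 and 10.6 CPM in parental and 27.4 and 31.4 CPM in DMSO cells (2.16 ± 0.46, adjusted p = 0.0376). MAT1A, the adult liver enzyme that makes S-adenosylmethionine, was at 0.915 and 0.914 CPM against 5.11 and 6.88 CPM (1.86 ± 0.31, adjusted p = 0.0114). FBP1, a regulated enzyme of gluconeogenesis, was at 1.16 and 0.746 CPM against 4.41 and 6.74 CPM (1.74 ± 0.23, adjusted p = 0.00338). All 3 were apart between the groups. Among drug-metabolizing and metabolic enzymes below or outside the test, CYP3A4, the main adult cytochrome of the family, stayed at or under 0.562 CPM and was not tested, as were CYP7A1, the rate-limiting enzyme of bile acid synthesis, and G6PC1, which releases glucose from the liver. CYP3A5 had a log2 fold change of -0.01. CYP3A7, the fetal form, was at 1.35 and 1.13 CPM against 3.59 and 10.9 CPM (1.73, adjusted p = 0.161), and TAT, a tyrosine-degrading enzyme, had a log2 fold change of 0.51 (adjusted p = 0.211). UGT1A1, the bilirubin-conjugating enzyme, named after its values were seen, was lower in both DMSO libraries, at 27.6 and 23.5 CPM against 3.96 and 8.06 CPM (-1.98, adjusted p = 0.0689), though it shares exons with the other UGT1A genes and its reads may not be separable.

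None of the 26 tested liver transcription factors (27 listed) passed by limma, with a median of 0.13. HNF4A was at 191 and 198 CPM in parental and 207 and 218 CPM in DMSO cells (0.13, adjusted p = 0.915). CEBPA was at 143 and 200.6 CPM against 271 and 297 CPM (0.74, adjusted p = 0.29), so both were higher in each DMSO library. The forkhead factor FOXA2 had a log2 fold change of 0.05. A p that misses the threshold does not show that these factors did not differ.

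Of the liver transporters 1 of 16 tested genes (24 listed) rose, beside 1.07% of all genes, with a median of 0.63. SLC2A2, the glucose transporter GLUT2 of hepatocytes (chromosome 3 from 170714136 to 170744532), was at 1.25 and 1.98 CPM in parental and 10.6 and 7.69 CPM in DMSO cells, far apart (1.95 ± 0.20, adjusted p = 0.000686). The bile acid carriers SLC10A1 and ABCB11 were near 0 and not tested. Among fetal and progenitor genes, 21 tested of 22 listed, none passed and the median was 0.07. AFP, the fetal counterpart of albumin, was at 268 and 116 CPM against 716 and 1017 CPM (2.27 ± 0.54, adjusted p = 0.062). GPC3, a heparan sulfate proteoglycan of hepatocellular carcinoma, was at 389.8 and 544 CPM against 874 and 949.8 CPM (0.98, adjusted p = 0.363). DLK1, a membrane protein of fetal hepatoblasts named after its values were seen, was at 3.46 and 11.6 CPM against 37.72 and 93.8 CPM (3.01, adjusted p = 0.0652). In all 3 genes the DMSO libraries were the higher ones, but over the list 11 genes were above 0 and 10 below. Both DMSO libraries were higher in 8 of the 21 and lower in 6, beside 32.3% and 29.6% of all genes.

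**Figure D3:**
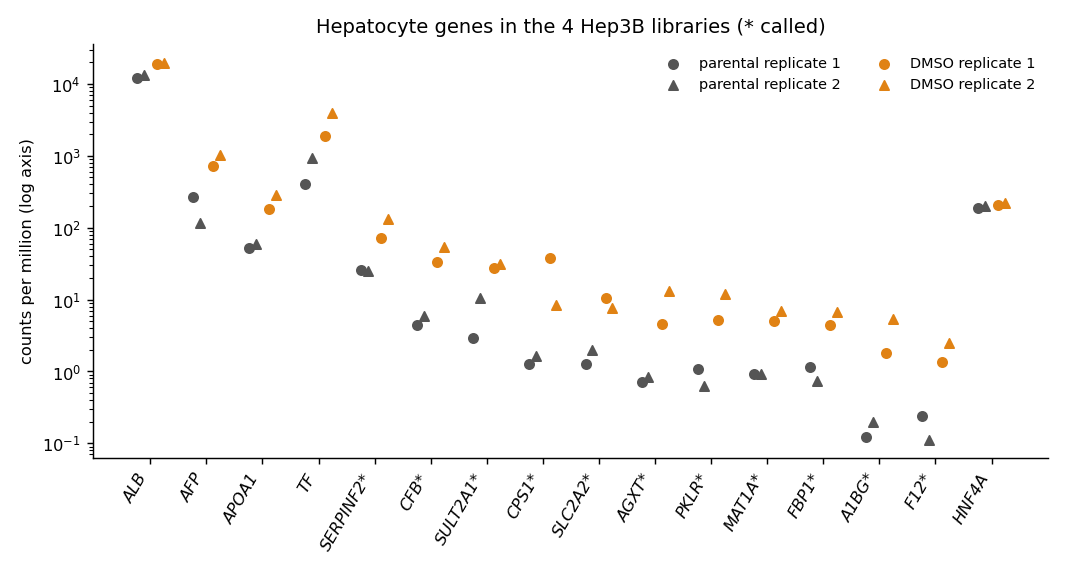
Level of selected hepatocyte genes in each of the 4 Hep3B libraries, in CPM on a log axis, with 1 point per library, and an asterisk marks a called gene. Both DMSO points lie above both parental points in each gene shown, by the least in HNF4A at 191 to 218 CPM, and CPS1 has the widest gap between DMSO points. Hepatocyte genes that did not follow this, such as FGB, FOXA2, CYP3A5 and UGT1A1, are not shown.

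Of these called hepatocyte genes SLC2A2 passed whichever library was left out. Without DMSO replicate 2, CFB, F12, SERPINF2, FBP1, PKLR, SULT2A1, MAT1A and AGXT did not pass (adjusted p of 0.0545 to 0.395), and without parental replicate 1 the 9 genes other than FBP1 and SLC2A2 did not (0.0656 to 0.313). Without parental replicate 2 CFB, F12, SERPINF2, PKLR, MAT1A and AGXT did not pass (0.0578 to 0.157), and without DMSO replicate 1 CFB, SERPINF2 and SULT2A1 did not (0.0671 to 0.163). By edgeR's quasi-likelihood test only A1BG and CPS1 of the 11 passed.

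Cholesterol synthesis is controlled as a unit by the transcription factor SREBF2. In all 25 genes, all of them tested, both DMSO libraries were above both parental libraries, beside 32.3% of all genes. The median log2 fold change was 1.19. DHCR7, which makes cholesterol from 7-dehydrocholesterol, was at 43.5 and 72.7 CPM in parental and 191 and 247 CPM in DMSO cells (1.93 ± 0.40, adjusted p = 0.0342). LSS, which closes the sterol rings, was at 31.5 and 46.6 CPM against 113 and 137 CPM (1.68 ± 0.35, adjusted p = 0.0355). MVK, mevalonate kinase, was at 5.53 and 8.52 CPM against 22.5 and 23.3 CPM (1.60 ± 0.31, adjusted p = 0.0272). They were among the 4 called genes of the list, beside 1.07% of all genes that rose, and none fell. In the parental pair itself, replicate 2 was above replicate 1 by a median of 0.57 over the list. When any of the 4 libraries was left out none of these 3 genes passed (adjusted p of 0.0503 to 0.306), and the list's median lay between 0.80 and 1.38.

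Fatty acid and triglyceride synthesis genes were listed after GPAM had been seen, and 3 of 15 tested rose, GPAM among them, beside 1.07% of all genes. MLXIPL, the carbohydrate-responsive transcription factor ChREBP, was at 3.58 and 3.53 CPM in parental and 17.5 and 24.8 CPM in DMSO cells (2.26 ± 0.49, adjusted p = 0.0405). ANGPTL8, a secreted inhibitor of lipoprotein lipase activity, was at 3.39 and 6.32 CPM against 17.1 and 34.7 CPM (2.17 ± 0.33, adjusted p = 0.00821). The groups were apart in each. MLXIPL did not pass without any of the 4 libraries (adjusted p of 0.134 to 0.332), nor ANGPTL8 without parental replicate 1 (0.109) or DMSO replicate 2 (0.0989), nor GPAM without parental replicate 1 (0.0513).

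In the matrix, immediate-early and stress lists, the called genes numbered 2 of 49 tested, 1 of 26 and 1 of 29, beside 1.58% of all genes. TIMP3, a matrix-bound inhibitor of metalloproteases, rose from 3.45 and 5.49 CPM to 17.7 and 20.3 CPM (1.89 ± 0.25, adjusted p = 0.00292), and TGFB2, a transforming growth factor, fell from 104 and 100.2 CPM to 44.3 and 51.4 CPM (-1.08 ± 0.23, adjusted p = 0.0366). They were the called genes of the matrix and adhesion list. DUSP4, a phosphatase induced by and acting on MAP kinases, was at 14.7 and 16.9 CPM against 5.20 and 4.76 CPM, the called gene of the immediate-early list (-1.49 ± 0.19, adjusted p = 0.0026). SHMT2, a mitochondrial enzyme of serine and folate metabolism, was the called gene of the stress list, at 138 and 151 CPM against 259.7 and 321 CPM (1.00 ± 0.16, adjusted p = 0.00856). TGFB2 did not pass without any of the 4 libraries (adjusted p of 0.129 to 0.258), SHMT2 did not pass without parental replicate 1 or DMSO replicate 2 (0.109 and 0.133), and TIMP3 and DUSP4 passed in each case.

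Of 8 tested fibroblast and stellate markers, 1 rose and 1 fell, beside 1.07% and 0.513% of all genes. Both DMSO libraries were higher in 4 and lower in 2, beside 32.3% and 29.6%. The lower ones included LUM, which was not called, at 32.9 and 21.7 CPM in parental and 13 and 10.8 CPM in DMSO cells. PDGFRB, a growth factor receptor, rose from 3.90 and 5.67 CPM to 14 and 11.8 CPM (1.28 ± 0.25, limma adjusted p = 0.0264). LRAT, which esterifies retinol, fell from 1.78 and 1.63 CPM to 0.286 and 0.576 CPM (-0.93 ± 0.14, adjusted p = 0.00793). PDGFRB did not pass without parental replicate 1, DMSO replicate 1 or DMSO replicate 2 (adjusted p of 0.143 to 0.266), nor did LRAT without either replicate 1 (0.0823 and 0.0939). The collagen genes that define fibroblasts were near 0 in these cells, as given above.

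No gene passed by limma among 38 cell cycle genes (median -0.17) or 26 tested NRF2 and metal-response genes (0.03). Nor did any among 17 tested interferon genes (0.15), 35 respiratory chain genes (0.12), 15 histone genes (0.22) or 33 ribosomal protein genes (0.19). Both DMSO libraries were higher in 9 of the 38 cell cycle genes and lower in 18, beside 32.3% and 29.6% of all genes. The ribosomal protein genes had both DMSO libraries above both parental libraries in 24 of 33, beside 32.3% of all genes, with small changes. None of the 40 hypoxia-induced genes passed either, but their median was 0.40, and it rested on DMSO replicate 2, as described next.

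The DMSO replicates were as close to each other as the other Hep3B pairs for most genes. The SD of the log2 difference between replicates was 0.236 in the DMSO pair and 0.262 in the parental pair, and 70 genes differed by at least 1 on the log2 scale in the DMSO pair, 103 in the parental, 157 in the IR and 119 in the CR pair. The DMSO pair stood out by direction: 61 genes (0.406%) were at least 1 higher in replicate 2 and 9 (0.0599%) were at least 1 lower, whereas the parental pair had 49 and 54, the IR pair 83 and 74 and the CR pair 60 and 59. Over all genes, replicate 2 was the higher in 49%. The difference also followed GC content, with a Spearman correlation of 0.377 over 14450 genes in the DMSO pair, 0.0098 in the parental, -0.282 in the IR and 0.125 in the CR pair, and 0.508 and -0.527 in the Huh7 DMSO and parental pairs, a description across genes of single libraries. Of the 61 genes higher in replicate 2, 58 were above both parental libraries there, in 45 replicate 1 was also above both parental libraries, and in 45 replicate 1 was within 1 of the parental mean. Of the 70, 9 were among the 237 called genes, namely AGXT, A1BG, PKLR, MEP1A, FBN2, FXYD2, FXYD6-FXYD2, IGFBP2 and CPS1.

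**Figure D4:**
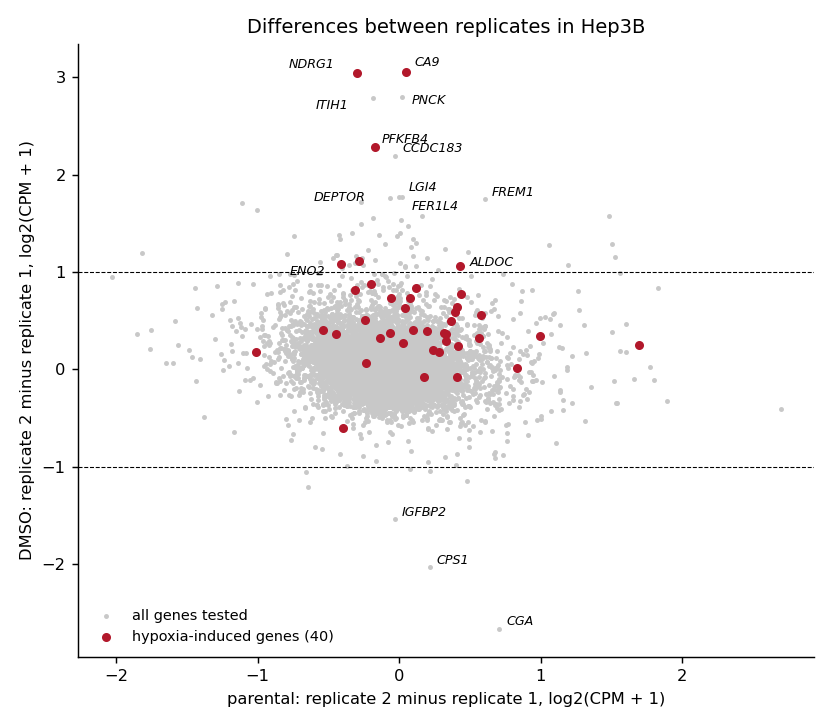
Log2 difference of replicate 2 minus replicate 1 in the Hep3B DMSO pair (y axis) against the same difference in the Hep3B parental pair (x axis), both of log2(CPM + 1), 1 point per gene tested. On the y axis 61 genes lie at or above the upper dashed line, which marks 1, and 9 at or below the lower, and hypoxia-induced genes (red) such as CA9 and NDRG1 are among those above.

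Of the 40 genes on the hypoxia list, 6 were among the 61, beside 0.406% of all genes. The list is a selection, and the other genes of the 61 were not checked for induction by hypoxia. CA9, a membrane carbonic anhydrase that regulates pH and a classic target of hypoxia-inducible factors, was at 3.53 and 3.67 CPM in parental cells, 3.88 CPM in the first DMSO library and 39.5 CPM in the second. NDRG1, a stress-induced growth regulator, was at 13.7 and 10.9 CPM in parental cells, 15.4 CPM in the first DMSO library and 134 CPM in the second. PFKFB4, which sets the level of an activator of glycolysis, was at 2.42, 2.04, 4.45 and 25.5 CPM in the same order. For CA9 and NDRG1 replicate 1 lay at the parental level and replicate 2 alone stood over 10-fold above it. The glycolytic enzyme ALDOC was at 2.33, 3.49, 13.2 and 28.6 CPM. ENO2, an enolase, was at 5.79, 4.09, 5.01 and 11.7 CPM. ALDOC was thus above parental cells in replicate 1 too, and ENO2 was not.

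The whole list leaned the same way. The second DMSO library had the higher level in 37 of its 40 genes, beside 49% of all genes, with a median difference of 0.40, and DMSO replicate 2 was the highest of the 4 libraries in 29. In the parental pair replicate 2 was the higher in 25 of the 40. Against the parental mean, the list's median was 0.06 in DMSO replicate 1 and 0.63 in DMSO replicate 2, so a difference between DMSO and parental cells in these genes was mostly that of a single library.

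**Figure D5:**
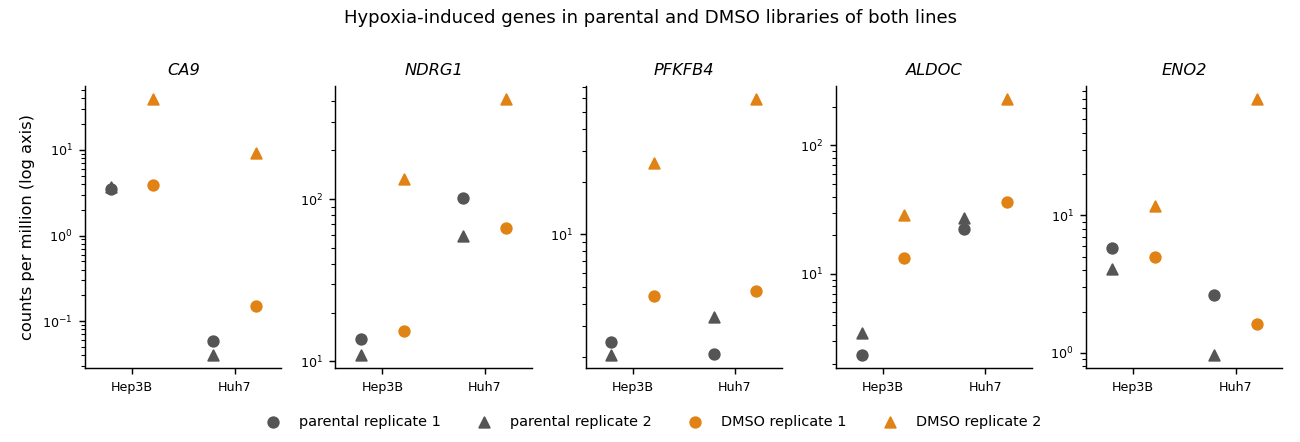
Level of 5 of the hypoxia-induced genes that differed at least 1 on the log2 scale between the Hep3B DMSO replicates, in CPM on a log axis, 1 point per library, in Hep3B and Huh7. DMSO replicate 2 is the highest of the parental and DMSO libraries of its line in each gene, as for CA9 at 39.5 CPM in Hep3B and 9.15 CPM in Huh7. The IR and CR libraries are not shown.

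Binding sites of hypoxia-inducible factors contain the core letters ACGTG or GCGTG. The promoter windows of CA9 (chr9:35673678-35673977, plus strand) and PFKFB4 (chr3:48556754-48557053, minus strand), RefSeq on GRCh38.p14, are shown because these genes are 2 of the 3 on the hypoxia list that differed most between the DMSO replicates. Capitals mark the letters that match on either strand, and CACGT is ACGTG read on the other strand. CA9 holds 1 match to ACGTG and PFKFB4 holds 1 match to GCGTG. Of 35116 promoter windows of the same length 48.4% hold either motif (ACGTG in 21.4%, GCGTG in 36.5%), so a match is common and is a description only.
CA9: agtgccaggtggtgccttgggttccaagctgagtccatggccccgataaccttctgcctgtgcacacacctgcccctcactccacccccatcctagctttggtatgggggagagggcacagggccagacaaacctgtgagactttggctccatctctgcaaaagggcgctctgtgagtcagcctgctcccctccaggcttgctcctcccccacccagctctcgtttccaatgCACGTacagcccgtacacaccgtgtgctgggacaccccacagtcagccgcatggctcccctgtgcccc
PFKFB4: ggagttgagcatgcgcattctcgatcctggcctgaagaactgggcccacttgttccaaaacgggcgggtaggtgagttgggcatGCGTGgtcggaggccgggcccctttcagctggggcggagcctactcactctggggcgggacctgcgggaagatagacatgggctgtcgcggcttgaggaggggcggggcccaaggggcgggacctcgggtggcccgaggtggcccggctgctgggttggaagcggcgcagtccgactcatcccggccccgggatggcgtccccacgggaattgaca

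The other genes furthest above in DMSO replicate 2 were not hypoxia-list members. ITIH1, a heavy chain of a plasma protease inhibitor made by the liver, was at 0.296 and 0.141 CPM in parental cells, 0.690 CPM in the first DMSO library and 10.7 CPM in the second. PNCK, a calcium-dependent kinase, was at 0.0538, 0.0703, 0.143 and 6.95 CPM in that order, and LGI4, a secreted glial protein, had reads in DMSO replicate 2 alone, at 2.41 CPM. DEPTOR, an inhibitor of mTOR kinase, was at 2.03, 1.90, 2.16 and 9.72 CPM. In each, replicate 1 was near the parental libraries. FREM1, a basement membrane protein, was at 1.41, 2.67, 4.67 and 18.0 CPM and just missed the test (1.80, adjusted p = 0.0519). Without DMSO replicate 1, FREM1 and ITIH1 passed (adjusted p of 0.00115 and 0.000721). Of the 139 tested genes of the hepatocyte lists, 8 were among the 61, beside 0.406% of all genes. In the other direction 1 of the 139 was at least 1 lower in replicate 2, beside 0.0599%. The remaining genes among the 10 furthest above were CCDC183 and FER1L4.

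The 9 genes at least 1 lower in replicate 2 had the opposite form: in all 9, DMSO replicate 1 was above both parental libraries. CGA, the common subunit of glycoprotein hormones, was at 2.23 and 4.28 CPM in parental cells, 24.5 CPM in the first DMSO library and 3.02 CPM in the second. NTS, the peptide neurotensin, was at 628, 401, 917 and 397 CPM in that order, and FGF13, an intracellular fibroblast growth factor homologue, at 0.0404, 0.211, 3.76 and 0.713 CPM. CGA and NTS in replicate 2 therefore lay within or below the parental values. IGFBP2, which binds insulin-like growth factors, was at 0.108, 0.0844, 5.88 and 1.37 CPM and rose by the test (1.88 ± 0.40, adjusted p = 0.0376), but it did not pass without DMSO replicate 1 (0.190), parental replicate 1 (0.247) or parental replicate 2 (0.149). Without DMSO replicate 2, CGA and FGF13 passed as higher (adjusted p of 0.00218 and 0.00128). PWWP3B was at 13.7, 16.1, 20.3 and 9.35 CPM, and IGFBP4, SNORA53, CD82 and COLEC12 completed the 10 genes furthest below.

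Huh7 DMSO and parental cells provide the nearest comparison, with 520 genes higher (3.46%) and 206 lower (1.37%) in Huh7. The DMSO change differed between the lines, by an interaction contrast in the same limma model, for 91 genes (0.606%), being higher in Hep3B for 35 (0.233%) and lower for 56 (0.373%). Of the 237 genes called in Hep3B, 35 were among the 91, and 17 of these rose and 18 fell in Hep3B. MAGEA3 fell by 2.79 on the log2 scale in Hep3B and stood at 1.62 in Huh7, a difference of -4.41 (adjusted p = 0.00039). SEMA5A fell by 2.45 in Hep3B and stood at 2.55 in Huh7 (-5.003, adjusted p = 0.00039). Both therefore had opposite signs in the 2 lines.

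In the other direction, COL4A5 had a log2 fold change of -0.11 in Huh7, which differed from Hep3B by 3.84 (adjusted p = 0.0195). For CADPS the difference was 2.92 (adjusted p = 0.00147), for PEG10 2.75 (0.027), for PEG3 2.60 (0.0128), for TIMP3 2.37 (0.0113) and for SLC2A2 1.75 (0.0193). For SLC2A2, PEG3 and PEG10 the change was thus larger in Hep3B by the test of the difference. In the Huh7 parental and DMSO libraries, however, SLC2A2 lay at 0.188 to 0.469 CPM, CADPS at 0.259 to 0.565 CPM and PEG3 at 0 to 0.316 CPM. At such levels a change in Huh7 could hardly appear, so for these genes the difference mostly restates the Hep3B change. For CPS1 the difference was 3.01 and did not pass (adjusted p = 0.0635). L1CAM, a neural adhesion molecule, was at 1.71 and 3.33 CPM in parental and 7.35 and 7.31 CPM in DMSO Hep3B cells, with a difference of 2.83 (0.0361). Of the genes whose change was lower in Hep3B than in Huh7, ARRDC4, an arrestin-domain protein of glucose sensing, differed by -3.44 (0.00422). ARRDC4 was at 3.35 and 3.53 CPM against 1.07 and 0.713 CPM in Hep3B. RASA3, a Ras GTPase-activating protein (6.33 and 8.96 against 2.9 and 2.82 CPM in Hep3B), differed by -3.34 (0.0242). The histone gene H2BC1, near 0 in Hep3B, differed by -3.30 (0.00212). By limma L1CAM, ARRDC4, RASA3 and H2BC1 did not pass in Hep3B (adjusted p of 0.062 to 0.998). All passed in Huh7, where the log2 fold change was -1.55 for L1CAM (adjusted p = 0.038), 2.20 for ARRDC4 (0.00255), 2.20 for RASA3 (0.0137) and 3.33 for H2BC1 (0.000103). The count of 91 was 27 to 1024 when a library was left out, the highest without Huh7 DMSO replicate 1. COL4A5 and L1CAM did not pass in 7 of these 8 fits and RASA3 and PEG10 in 5 each, all 4 failing without Hep3B DMSO replicate 1, DMSO replicate 2 or parental replicate 1, and PEG3 did not pass without parental replicate 1.

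The disagreement between replicates carried over to Huh7. There 1011 genes stood at least 1 higher in the second DMSO library and 144 at least 1 lower, with an SD of 0.571. Of the 61 genes at least 1 higher in Hep3B DMSO replicate 2, 39 were so in Huh7 as well, beside 6.73% of all genes, and 56 were above 0 there. None of the 9 lower genes was at least 1 lower in Huh7, beside 144 of all 15019 genes, a share too small for 9 genes to show a difference. CA9 was at 0.0582 and 0.0402 CPM in Huh7 parental cells and at 0.152 and 9.15 CPM in Huh7 DMSO cells, and NDRG1 at 101 and 59.0 CPM against 66.3 and 415 CPM. In the hypoxia list 38 of the 40 genes were higher in Huh7 DMSO replicate 2, with a median of 1.21, and 35 were so in both lines. Of all 15019 genes, 8497 were higher in Huh7 DMSO replicate 2, with a median of 0.07. Across all 15019 genes the replicate difference in Hep3B DMSO cells had a Pearson correlation of 0.415 with that in Huh7 DMSO cells and -0.163 with that of the Hep3B parental pair, given as a description, since genes of a library share its depth and base composition.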

How the data were processed

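Per the labels, poly(A) mRNA libraries with 2 replicates per group were sequenced for 75 cycles on a NextSeq 500. The methods of the study instead describe biological triplicates, total RNA libraries and a HiSeq instrument, and this difference was not resolved. The authors aligned reads with STAR (version not given) to hg19, kept unique hits, counted reads over exons of RefSeq mRNAs, and deposited CPM for 26258 genes, scaled to library totals alone. Whole reads were recovered from the CPM steps for 100% of values (tolerance 0.05 reads), which gave the depths. All 16 per-sample columns were used.

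Genes at 1 CPM or more in 2 or more libraries (15019) were tested on log2(CPM + 1) with limma 3.58.1 in R 4.3.3, with 8 group means over 16 libraries sharing 1 trended variance, and p-values were adjusted by Benjamini-Hochberg. On simulated reads for Hep3B DMSO against parental, of 100 changes of 2-fold and 100 of 4-fold, 53% and 95% were recovered. Beside these were 22 false calls among 14903 genes. The changes were placed only in genes well above 1 CPM, and each gene was drawn independently, without a GC trend or a shift shared by a library. The simulation therefore does not cover genes near 1 CPM or such shifts. Alternatives used edgeR 4.0.16, DESeq2 1.42.0, other pseudocounts, filters, normalizations and subsets of libraries, and a correction for GC content, known for 96.2% of tested genes.

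The members and 19 gene lists were chosen with earlier results of these data known, and 4 further lists were written after values were seen. Named genes were the 10 highest and 10 lowest called changes, called and preset hepatocyte genes, up to 4 called genes of each other list, the 10 largest replicate differences each way with hypoxia-induced genes differing by 1 or more, and the 5 largest line differences each way. Promoter sequences came from RefSeq tables, and figures were drawn with matplotlib 3.10.9 in Python 3.11.15. Some genes that the rule would name are not reported here.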

Additional observations from a re-analysis of the deposited data

Results flagged for a closer look

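The DMSO change differed between Hep3B and Huh7, by the interaction contrast of limma (adjusted p under 0.05), for 91 genes. Among the genes named in the report, the log2 fold change in Hep3B exceeded that in Huh7 by 3.84 for COL4A5, 2.92 for CADPS, 2.83 for L1CAM, 2.75 for PEG10, 2.60 for PEG3, 2.37 for TIMP3 and 1.75 for SLC2A2. In the opposite direction the difference was -5.003 for SEMA5A, -4.41 for MAGEA3, -3.44 for ARRDC4, -3.34 for RASA3, -3.30 for H2BC1, -3.01 for CHODL, -2.55 for MAGEA6, -2.10 for RASGRF2 and -1.92 for ZNF518B. In the Huh7 parental and DMSO libraries CHODL lay at 0 to 0.302 CPM, RASGRF2 at 0.138 to 0.445 CPM and ZNF518B at 0 to 0.115 CPM. For these and for CADPS, PEG3 and SLC2A2, also near 0 in Huh7, the difference mostly restates the Hep3B change. No group had the 4 or more libraries that a check for single outlying samples needs.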

How the results depend on the processing

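Of the 40 named called genes, none changed direction under the 17 alternatives, and 499 of 680 values stayed past the threshold. The 237 called genes became 77 with edgeR, 544 with DESeq2, 516 with the Hep3B libraries alone and 2 with the 4 libraries compared alone, where 2 residual degrees of freedom remained. Leaving out a library gave 46 to 507, the highest without Huh7 DMSO replicate 2, a case added after seeing the data. The 1210 genes at the study's thresholds became 774 with a pseudocount of 4 CPM and 763 to 1378 with a library left out, the lowest without DMSO replicate 2. With quantile normalization they were 685 higher and 481 lower. The 91 genes differing between lines became 35 with edgeR, 414 with DESeq2, 59 with a filter on the 4 libraries compared, 137 with the GC correction, 156 with the GC correction and the replicate block, and 27 to 1024 with a library left out. The 70 genes on which the DMSO replicates disagreed became 137 with a pseudocount of 0.25 CPM and 26 with 4 CPM. Replicate numbers were not a stated pairing, and the differences of same-numbered libraries had a correlation of -0.163. With the replicate block 294 genes were called (204 higher, 90 lower) and 102 differed between lines. With the crossed pairing, chosen after seeing the data, these counts were 239 and 100. The filter on the 4 libraries left no endothelial marker to test. The cause of these shifts was not tested. With 2 libraries a group, changes near 2-fold were recovered only in part, and genes under 1 CPM were compared on a compressed scale.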
